A study of Homo sapiens with 9 samples.

Results

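Adherens junctions are the belts of adhesion that hold neighbouring epithelial cells together. Classical cadherins bind each other across the gap between cells, and their tails carry catenins, which keep the cadherin at the membrane and tie it to actin filaments. Nectins form a parallel adhesion system whose tails bind afadin, a scaffold that also reaches actin, and E-cadherin and its partners are known for holding prostate epithelium in order. Here 10 genes of these families were followed through RNA-seq of the prostate cancer cell line DU145: the cadherins *CDH1*, *CDH2* and *CDH3*, the catenins *CTNNA1*, *CTNND1* and *JUP*, the afadin gene *AFDN*, the nectins *NECTIN1* and *NECTIN2*, and the vezatin gene *VEZT*. They were taken by symbol from 27902 genes with a RefSeq entry, and the FPKM (a fragment count scaled by transcript length and library depth) of all RefSeq entries of a gene were summed.

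The study asked how loss of the Wnt receptor FZD6 changes the transcripts of DU145 cells. Control cells expressed a scrambled shRNA (3 libraries), and knockdown cells expressed either of the *FZD6* hairpins called shRNA1 and shRNA2 (3 libraries each). All libraries come from this 1 established line of wild-type genotype, no treatment is labelled, and the labels call the libraries of a group a triplicate without saying whether they are separate cultures, so p-values measure the spread between these libraries, which may be technical. The methods describe a constitutive and an inducible hairpin vector, and which of them these libraries used is not given in the sources used here. Estimated depth was 33000000 to 41300000 fragments per library.

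*FZD6* itself, which checks the labels, was at most 20.9 FPKM in control libraries (mean 20.5, SD 0.441, n = 3), at 9.47 to 10.2 with shRNA1 and 7.69 to 8.79 with shRNA2. Its log2 fold change in knockdown against control was −1.12 (SE 0.085, limma adjusted p = 0.00049). The labelled cell type was checked against markers. *KRT7*, *KRT8*, *KRT18* and *KRT19* were abundant, and 1 of the 7 listed epithelial markers averaged under 1 FPKM. The endothelial list summed to at most 0.0943 FPKM. Of the 4 leukocyte markers, *PTPRC* and *CD3E* were listed at 0. *CD68*, a lysosomal protein gene of the same list, averaged 17.4 FPKM in control and 23.7 in knockdown libraries. The mesenchymal filament gene *VIM* had a mean of 1086 FPKM in control libraries, beside which *CDH2* was listed at 0.

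The sequences below show coding ends of nectin transcripts and coding starts of *CTNND1*, genes whose transcript shares are described further on. The last coding bases of the nectin transcripts encode the tail end that docks on afadin. Each line gives 27 bases up to the base before the stop codon in GENCODE v29 (GRCh38), with the last 4 codons in capitals. *NECTIN1* is read from the minus strand at chr11:119664750-119664776. The transcripts of *NECTIN2* are read from the plus strand, NM_002856 at chr19:44878591-44878617 and NM_001042724 at chr19:44888350-44888376.
NECTIN1 NM_002855: ttcatttccaagaagGAGTGGTACGTG
NECTIN2 NM_002856: ctcatctcacggcggGCAGTTTATGTG
NECTIN2 NM_001042724: tttgtcatgtcccggGCCATGTATGTG

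The splice forms of *NECTIN2* end in different exons, and 9 of the 12 capital bases are the same between them. Between *NECTIN1* and the *NECTIN2* forms, 6 and 7 of these 12 bases are the same. So both *NECTIN2* forms, which shared the FPKM of that gene almost evenly, are shown with their own ends.

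*CTNND1*, the gene of p120 catenin, is known for starting its protein at different codons, longer forms in mesenchymal cells and shorter forms in epithelial cells. The first 30 coding bases from each start codon used by its RefSeq entries are given from the plus strand, with the start codon in capitals, at chr11:57791479-57791508, chr11:57791641-57791670 and chr11:57795613-57795642 (GRCh38).
Start of NM_001085462: ATGgacgactcagaggtggagtcgaccgcc
Start of NM_001206889: ATGgccaacggcacactcacccgccggcat
Start of NM_001085468: ATGcaggagccggggcagattgtggagacc

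The levels show how the RNA of these genes ranked in DU145 cells. In control libraries, *CTNNA1* was highest with a mean of 103 FPKM (SD 1.99, n = 3), followed by *JUP* (58.3), *NECTIN2* (52.5), *CDH3* (43.4), *CTNND1* (29.9), *NECTIN1* (27.1), *VEZT* (15.4), *AFDN* (13.0) and *CDH1* (4.68). Neighbours in this order did not overlap among the 3 control libraries. *CTNNA1* lay at percentile 93.2 of the tested genes by control level and *CDH1* at percentile 29.9. In the knockdown libraries the means of *JUP* (47.8 FPKM, SD 1.56, n = 6) and *NECTIN2* (50.9, SD 1.96) stood in the opposite order, as did those of *CTNND1* (25.4, SD 1.84) and *NECTIN1* (25.8, SD 1.69), and in both pairs the libraries of the genes overlapped.

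**Figure D1:**
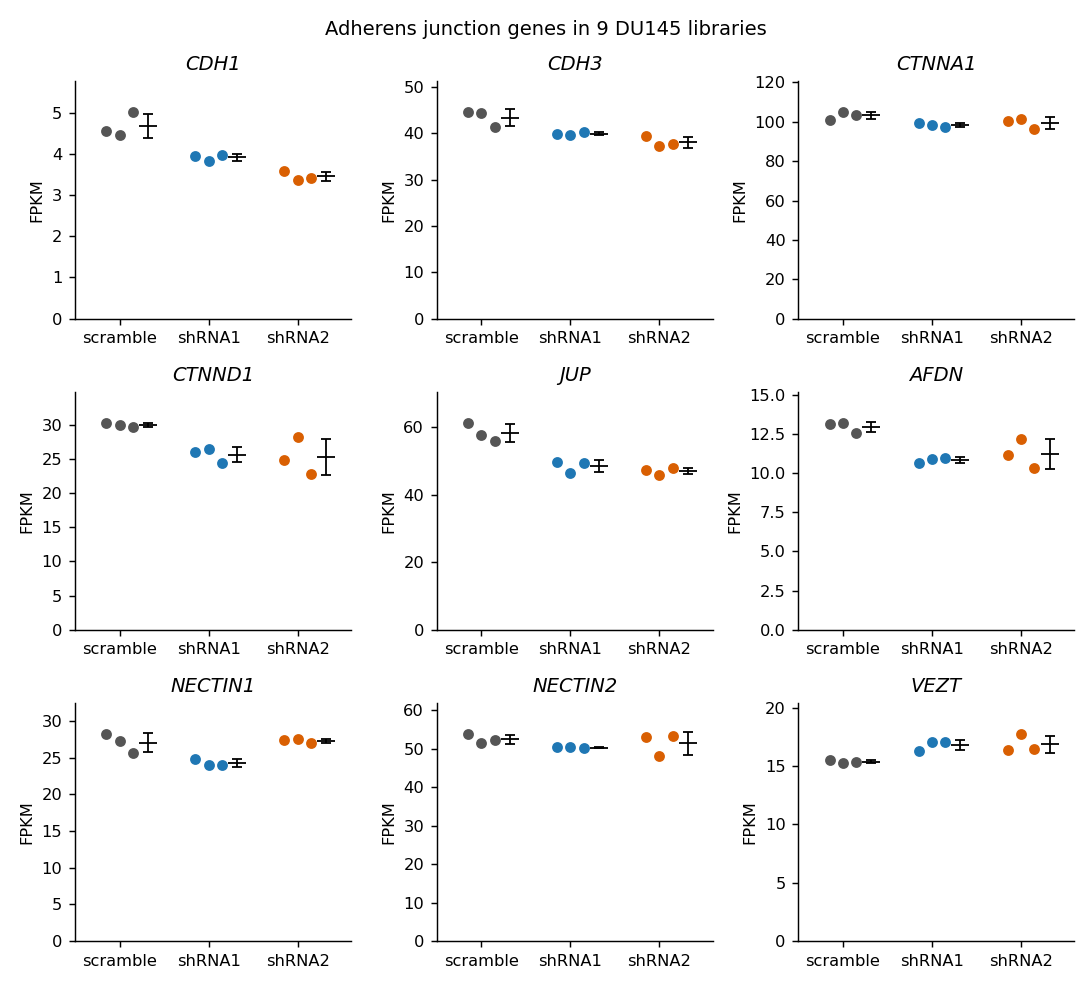
FPKM of 9 of the genes (y axes, starting at 0) in each library of the scramble, shRNA1 and shRNA2 groups, with the group mean and SD (n = 3) as a bar beside the points. The 6 knockdown libraries lie below all control libraries for *CDH1*, *CDH3*, *CTNND1*, *JUP* and *AFDN* and above them for *VEZT*; *CDH2*, listed at 0 in all 9 libraries, is not drawn.

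Of the 10 genes, 9 had a mean of at least 1 FPKM and were tested among 12509 genes on log2(FPKM + 1), a scale that understates the change of low genes. In knockdown (6 libraries) against control (3), limma called 5 lower, namely *CDH1*, *CDH3*, *CTNND1*, *JUP* and *AFDN*, at a Benjamini-Hochberg adjusted p under 0.05. Over all tested genes 7.1% were called lower. It called 1 higher, *VEZT*, against 13.5% of all tested genes. *CTNNA1*, *NECTIN1* and *NECTIN2* were not called. The median log2 fold change was −0.15 over the 9 genes and 0.03 over all tested genes. The study named adherens junction among the gene classes it drew from these same libraries, so these counts are not independent evidence of a direction.

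The same 5 genes were below all 3 control libraries in all 6 knockdown libraries, which held for 9.46% of all tested genes. *VEZT* was above them in all 6, which held for 16.4%. The study itself required p under 0.01 before adjustment together with 1.2-fold or more, and by that rule *CDH1* and *JUP* were lower in knockdown, against 1.78% of all tested genes. In bulk RNA, fewer cells that express a gene and less RNA per cell cannot be told apart.

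**Figure D2:**
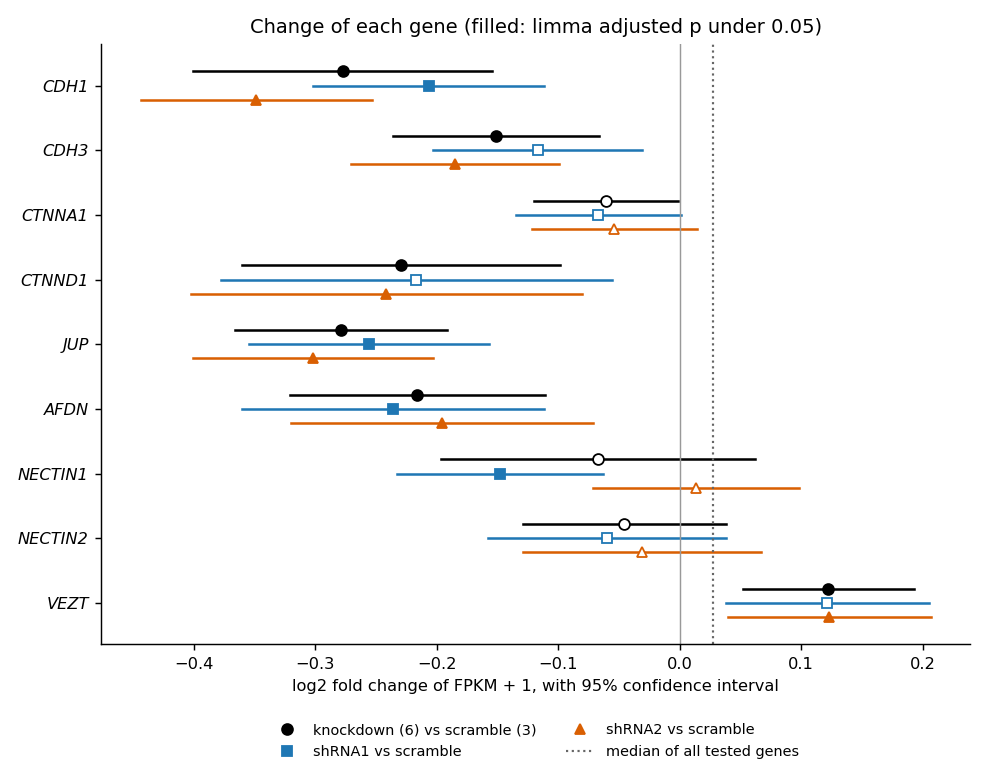
Log2 fold change of each gene (x axis, log2 of FPKM + 1) with its 95% confidence interval for knockdown, shRNA1 and shRNA2 against scramble; filled symbols passed the limma threshold. The knockdown estimates of *CDH1* and *JUP* lie near −0.28 and that of *VEZT* at 0.12, beside a median of 0.03 over all tested genes (dotted line).

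Among the cadherins, *CDH1* encodes E-cadherin, the main cadherin of simple epithelia. It lies on chromosome 16 from 68737292 to 68835536 (hg38). Its level was 4.55, 4.46 and 5.02 FPKM in the control libraries, 3.95, 3.83 and 3.97 with shRNA1, and 3.57, 3.38 and 3.41 with shRNA2. All knockdown libraries were below all controls, and all shRNA2 libraries were below all shRNA1 libraries. The knockdown mean was 78.8% of the control mean, a log2 fold change of −0.28 (SE 0.054, limma adjusted p = 0.0104, exact two-sided permutation p = 0.0119). This permutation p is the smallest that 6 against 3 libraries allow. Here and for the other genes, the tests of knockdown against control pool the libraries of both hairpins as replicates. Their p-values do not measure the spread between hairpins.

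*CDH1* was called lower with shRNA1 (log2 fold change −0.21, limma adjusted p = 0.0153) and with shRNA2 (−0.35, limma adjusted p = 0.00175). The difference between the hairpins was −0.14 (95% interval −0.24 to −0.05, limma adjusted p = 0.0867). It missed the threshold, but passed without control replicate 3 (limma adjusted p = 0.0448). The shRNA1 call was lost without shRNA1 replicate 2 (limma adjusted p = 0.0572) and with the length trend described below removed (0.0623). An estimated 565 to 969 fragments per library lay behind the *CDH1* values, the fewest of the 9 genes.

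*CDH3*, the gene of P-cadherin, which basal epithelial cells carry, is the neighbour of *CDH1* on chromosome 16, from 68645310 to 68700292, with 36999 bases between them. It was at 44.6, 44.3 and 41.3 FPKM in control libraries, 39.8, 39.6 and 40.3 with shRNA1, and 39.3, 37.2 and 37.6 with shRNA2. The groups did not overlap. The knockdown mean was 89.8% of the control mean (log2 fold change −0.15, SE 0.037, limma adjusted p = 0.0241, exact permutation p = 0.0119). The call was made with shRNA2 (−0.19, limma adjusted p = 0.0106) and not with shRNA1 (−0.12, limma adjusted p = 0.0637), and the difference between the hairpins did not pass (−0.07, 95% interval −0.15 to 0.02). Without control replicate 1 or 2 the limma adjusted p in knockdown was 0.0993 or 0.0992, and without control replicate 3 *CDH3* was also called with shRNA1 (0.0355).

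Measured per length, P-cadherin transcripts outnumbered E-cadherin transcripts in every library. The ratio of *CDH3* to *CDH1* was 9.80, 9.93 and 8.23 in control libraries, 10.1, 10.3 and 10.2 with shRNA1 and 11.0 in all 3 shRNA2 libraries. All 6 knockdown ratios exceeded all control ratios. The summed level of the 3 cadherins was 46.3 to 49.1 FPKM in control libraries and 40.5 to 44.3 in knockdown libraries. *CDH2*, the gene of N-cadherin, which many mesenchymal and neural cells carry, was listed at 0 in all 9 libraries and gave no fold change.

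Of the catenins, *JUP* encodes plakoglobin, which binds cadherin tails in adherens junctions and in desmosomes. It lies on chromosome 17 from 41754607 to 41786768. Its level was 61.2, 57.8 and 55.8 FPKM in control libraries, 49.9, 46.6 and 49.4 with shRNA1, and 47.4, 45.9 and 47.8 with shRNA2. The lowest control library was above the highest knockdown library by more than either group's SD. The knockdown mean was 82.1% of the control mean (log2 fold change −0.28, SE 0.038, limma adjusted p = 0.0032, exact permutation p = 0.0119).

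Both hairpins lowered *JUP*, by limma adjusted p = 0.00928 with shRNA1 (log2 fold change −0.26) and 0.00312 with shRNA2 (−0.30). The interval of their difference was −0.15 to 0.05. *CTNNB1*, the gene of β-catenin, takes the same site on the cadherin tail as plakoglobin. It was at 69.1, 69.2 and 69.3 FPKM in control libraries, 72.1, 73.7 and 73.2 with shRNA1 and 66.5, 69.3 and 65.9 with shRNA2. *CTNNB1* was not called in knockdown (log2 fold change 0.02, 95% interval −0.08 to 0.11, limma adjusted p = 0.797). The level of *JUP* relative to *CTNNB1* was 0.806 to 0.886 in control libraries and 0.632 to 0.725 in knockdown libraries, with no overlap.

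*CTNND1* lies on chromosome 11 from 57761802 to 57819540, and p120 catenin binds the part of the cadherin tail next to the membrane. It was at 30.2, 29.95 and 29.6 FPKM in control libraries, 26.01, 26.5 and 24.4 with shRNA1, and 24.8, 28.1 and 22.8 with shRNA2. The controls were close to each other (SD 0.296) and the shRNA2 libraries spread widely (SD 2.69), with the highest of them still below every control. The knockdown mean was 85.0% of the control mean (log2 fold change −0.23, SE 0.058, limma adjusted p = 0.0253, exact permutation p = 0.0238). Without control replicate 1, 2 or 3 the limma adjusted p was 0.0892, 0.0870 or 0.0684. *CTNND1* was called with shRNA2 (−0.24, limma adjusted p = 0.0377) and not with shRNA1 (−0.22, limma adjusted p = 0.0663). The shRNA2 call was lost when any 1 library other than shRNA2 replicate 2 was left out, with limma adjusted p from 0.0508 to 0.0986, and *CTNND1* was called with shRNA1 without shRNA2 replicate 2 or 3 (0.0132 or 0.0336).

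*CTNNA1*, the gene of αE-catenin, which links the complex to actin, lies on chromosome 5 from 138753386 to 138935034. It was at 101, 105 and 104 FPKM in control libraries, 99.4, 98.4 and 97.6 with shRNA1, and 101, 101 and 96.2 with shRNA2. The shRNA1 libraries were below all controls, and the shRNA2 libraries overlapped with them. The log2 fold change in knockdown was −0.06 (SE 0.026, limma adjusted p = 0.133). The ratio of *CTNNA1* to *CTNND1* was 3.35 to 3.50 in control libraries and 3.61 to 4.22 in knockdown libraries.

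In the nectin system, *AFDN* encodes afadin and lies on chromosome 6 from 167826564 to 167972023. It was at 13.1, 13.2 and 12.6 FPKM in control libraries, 10.6, 10.9 and 11.0 with shRNA1, and 11.1, 12.2 and 10.3 with shRNA2. No knockdown library reached the lowest control. The knockdown mean was 85.1% of the control mean (log2 fold change −0.22, SE 0.046, limma adjusted p = 0.0141, exact permutation p = 0.0119). *AFDN* was called with shRNA1 (limma adjusted p = 0.0236) and with shRNA2 (limma adjusted p = 0.0323). Without control replicate 1 or 2 the limma adjusted p in knockdown was 0.0595 or 0.0636. The shRNA1 call was lost without control replicate 1 or 2 or any shRNA1 library (limma adjusted p from 0.0665 to 0.0786). The shRNA2 call was lost when any 1 library other than shRNA2 replicate 2 was left out (limma adjusted p from 0.0507 to 0.0953).

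*NECTIN1*, on chromosome 11 from 119638098 to 119729200, encodes a nectin that is also an entry receptor of herpes simplex virus. It was at 28.2, 27.3 and 25.7 FPKM in control libraries, 24.9, 24.0 and 24.1 with shRNA1, and 27.4, 27.6 and 26.97 with shRNA2. The shRNA1 libraries lay below all others, and the shRNA2 libraries lay within the control range. The log2 fold change was −0.15 with shRNA1 (SE 0.036, limma adjusted p = 0.0301) and 0.01 with shRNA2 (limma adjusted p = 0.816). The shRNA1 call was lost without control replicate 1 or 2 or any shRNA1 library (limma adjusted p from 0.0570 to 0.0976).

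The difference between the hairpins was called for *NECTIN1* alone among the 9 genes, 0.16 higher with shRNA2 than with shRNA1 (95% interval 0.08 to 0.25, limma adjusted p = 0.0414). Over all tested genes 6.71% were called between the hairpins. The shRNA2 libraries also held less *FZD6* than the shRNA1 libraries, with a log2 difference of −0.25 (limma adjusted p = 0.0273). Without control replicate 2, or without any 1 of the 6 knockdown libraries, *NECTIN1* was no longer called between the hairpins, with adjusted p up to 0.133.

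*NECTIN2*, on chromosome 19 from 44846297 to 44889223, was at 53.8, 51.4 and 52.4 FPKM in control libraries, 50.5, 50.4 and 50.2 with shRNA1, and 53.0, 48.0 and 53.2 with shRNA2. Its shRNA2 libraries overlapped with both other groups. The log2 fold change in knockdown was −0.05 (95% interval −0.13 to 0.04, limma adjusted p = 0.41). The level of *AFDN* relative to the summed nectins was 0.160 to 0.168 in control libraries and 0.129 to 0.161 in knockdown libraries, and these ranges overlapped.

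*VEZT*, on chromosome 12 from 95217746 to 95302799, encodes vezatin, a transmembrane protein of adherens junctions that binds myosin and the cadherin-catenin complex. It was at 15.5, 15.2 and 15.4 FPKM in control libraries, 16.3, 17.1 and 17.1 with shRNA1, and 16.3, 17.7 and 16.5 with shRNA2. All knockdown libraries were above all controls. The log2 fold change in knockdown was 0.12 (SE 0.031, limma adjusted p = 0.0258, exact permutation p = 0.0119). It was 0.12 with each hairpin, called with shRNA2 (limma adjusted p = 0.0399) and not with shRNA1 (limma adjusted p = 0.0529).

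The *VEZT* call was the least stable of the 6. Without control replicate 1, 2 or 3 or shRNA1 replicate 3, the limma adjusted p in knockdown was 0.0716, 0.0967, 0.0761 or 0.0504. *VEZT* has 45 RefSeq entries. Summed over protein-coding entries only, its log2 fold change was 0.05 (limma adjusted p = 0.856). The shRNA2 call was lost without any control library, shRNA1 replicate 2 or 3 or shRNA2 replicate 3 (limma adjusted p from 0.0574 to 0.109), and *VEZT* was called with shRNA1 without shRNA2 replicate 2 (0.0146).

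With shRNA1 alone, 4 of the genes were called lower (*AFDN*, *CDH1*, *JUP* and *NECTIN1*) against 7.19% of all tested genes, and 0 higher against 11.7%. The shRNA1 libraries were below all controls for 8 of the 9 genes, *NECTIN2* and *CTNNA1* included, against 17.9% of all tested genes, and above them for *VEZT*, against 28.9%. With shRNA2 alone, 5 were called lower (*AFDN*, *CDH1*, *CDH3*, *CTNND1* and *JUP*) against 11.4%, and *VEZT* higher against 15.3%. Both contrasts use the same control libraries.

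Transcript length moved with the changes. Over 12295 tested genes with an annotated length, Spearman's rank correlation between length and the knockdown log2 fold change was −0.43, a description across genes that share libraries. Of genes from 2000 to 3000 bases, 2.95% were called lower, and of genes over 8000 bases, 31.1%. The transcript lengths of the 9 genes ran from 2112 bases for *NECTIN2* to 7459 for *AFDN*. Among genes of 6000 to 8000 bases, which hold *AFDN*, 20.8% were called lower, and among those of 5000 to 6000 bases, which hold *CTNND1* and *NECTIN1*, 16.8%. Of genes from 3000 to 4000 bases, which hold *JUP*, *CDH3* and *CTNNA1*, 5.69% were. Of genes from 4000 to 5000 bases, which hold *CDH1* and *VEZT*, 11.6% were called lower and 5.59% higher.

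With the length trend removed from each library, the log2 fold changes were −0.29 for *JUP* (limma adjusted p = 0.00544), −0.25 for *CDH1* (0.0314), −0.18 for *CTNND1* (0.0305), −0.15 for *CDH3* (0.0339), −0.13 for *AFDN* (0.0235) and 0.15 for *VEZT* (0.0108). The calls in knockdown were the same 5 lower and 1 higher. Shares of all tested genes called with the length trend removed are not reported here. The estimate of *AFDN* shifted most, from −0.22. *NECTIN2* moved from −0.05 to −0.10 (limma adjusted p = 0.0886) and *NECTIN1* from −0.07 to −0.01 (0.914), both uncalled. With shRNA1 alone 2 genes, *JUP* and *AFDN*, were still called lower, and *VEZT* was called higher.

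**Figure D3:**
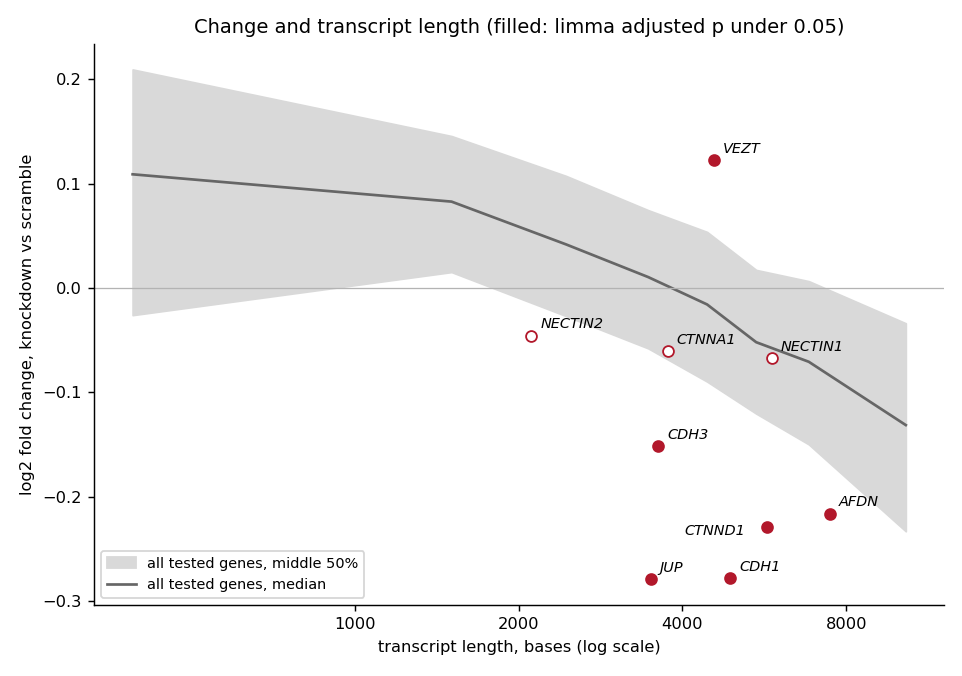
Log2 fold change in knockdown against scramble (y axis) by transcript length in bases (log x axis), with the median (line) and middle 50% (grey) of all tested genes in 8 length classes and 9 of the genes as points, filled where limma called them. *JUP*, *CDH1*, *CDH3*, *CTNND1* and *AFDN* lie below the grey band, as does *NECTIN2*, which was not called. *VEZT* lies above the band, while *NECTIN1* lies near the median for its length.

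RefSeq splits these genes into transcripts, and Cufflinks shares a gene's fragments among them. *CDH3* gave 92.2% of its FPKM to NM_001317195 (784 codons), *NECTIN1* 93.4% to NM_002855 (517 codons) and *AFDN* 69.6% to NM_001366321 and 24.3% to NM_001207008. *NECTIN2* was divided between NM_002856 (53.2%, 479 codons) and NM_001042724 (46.8%, 538 codons), whose coding ends are printed above. The share of NM_002856 was 51.4% to 55.4% in control libraries, 51.3% to 55.4% with shRNA1 and 52.2% to 54.1% with shRNA2.

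*CDH1* gave 75.9% of its FPKM to NM_004360 (882 codons) and 24.0% to NM_001317184 (821 codons), but the share of NM_004360 ran from 70.6% to 82.1% in control libraries, 70.7% to 94.3% with shRNA1 and 50.4% to 74.6% with shRNA2. *JUP* was divided mainly between NM_021991 (41.8%) and NM_002230 (38.0%). The largest shares of *CTNNA1* went to NM_001903 (66.9%) and NM_001323986 (30.2%), which encode the same 906 codons. The share of NM_001903 was 70.8% to 74.7% in control libraries, 57.9% to 67.1% with shRNA1 and 54.9% to 71.5% with shRNA2, so shRNA1 lay below the controls and shRNA2 overlapped with them. *VEZT* was spread over NM_017599 (35.8%), NR_147920 (16.3%), NM_001352108 (15.3%) and NM_001352093 (14.0%). The share of NR_147920 ran from 0.152% to 21.1% within the control libraries alone.

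For *CTNND1*, the start codon farthest downstream, that of NM_001085468 above, took 91.2% of the gene's FPKM over the 9 libraries, from 85.5% to 95.4%. The farthest upstream start took 3.03% to 5.80% in control libraries, 0.788% to 2.38% with shRNA1 and 1.95% to 6.72% with shRNA2. Thus shRNA1 lay below all controls for that start and shRNA2 did not. The middle start took 2.84% to 7.75%, with overlap of all groups. Among the transcripts from the downstream start, NM_001085468 was at 15.9, 12.2 and 15.6 FPKM in control libraries, 8.68, 10.1 and 11.2 with shRNA1 and 8.80, 10.5 and 9.75 with shRNA2. NM_001085467 was at 5.32 to 7.92 FPKM in control libraries and 7.42 to 10.8 in knockdown libraries.

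In a test chosen after seeing the data, made transcript by transcript (19658 transcripts, of which 26 belong to these genes), limma called 0 of the 26 in knockdown, against 1.26% of all. The lowest adjusted p was 0.0551, for NM_001085468 of *CTNND1* (log2 fold change −0.52, SE 0.10), and NM_001085467 of the same gene had a log2 fold change of 0.34 (limma adjusted p = 0.258). For *VEZT*, NM_017599 had a log2 fold change of 0.32 (limma adjusted p = 0.135). The 2 *NECTIN2* transcripts had −0.05 and −0.03.

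**Figure D4:**
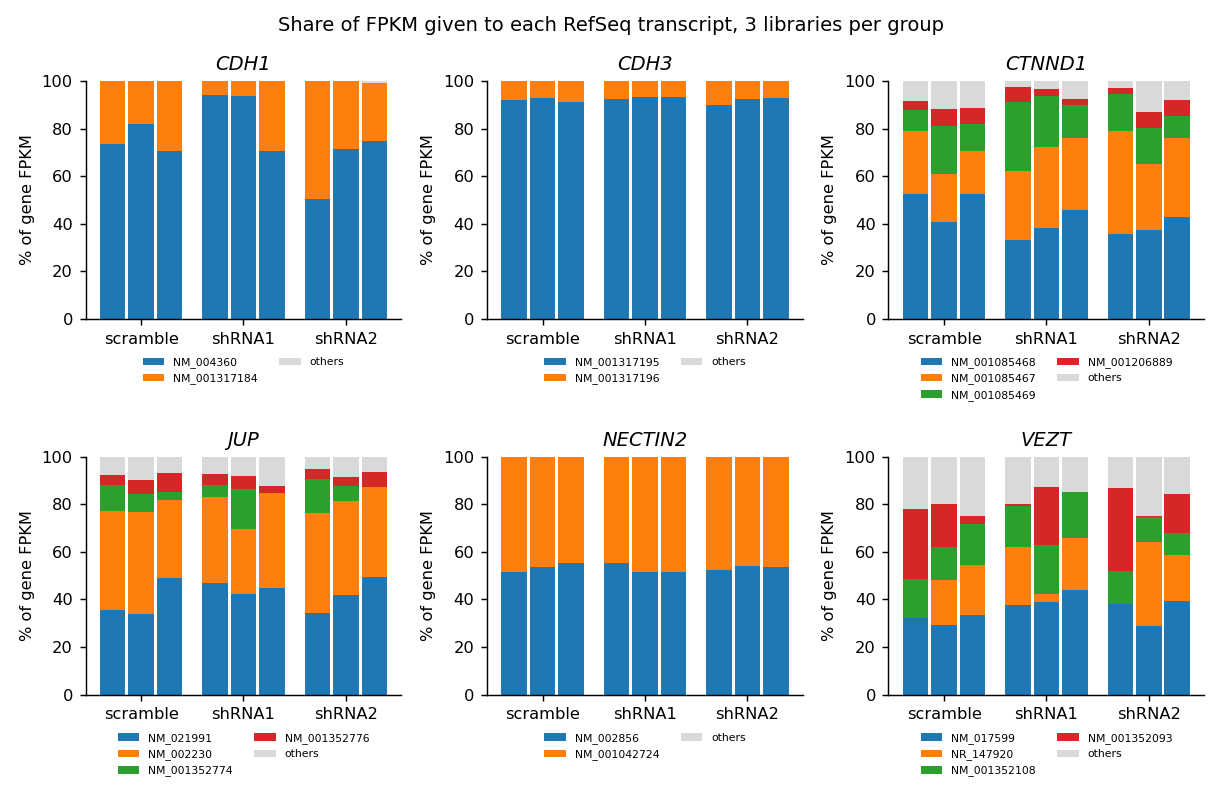
Share of a gene's FPKM in percent (y axis) given to each RefSeq transcript with at least 5% of the gene, in the 3 libraries of each group, for 6 of the genes. *CDH3* and *NECTIN2* keep nearly the same division in every library, while transcripts of *VEZT* and *CDH1* trade places between libraries of the same group.

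Promoter windows of 250 bases before a RefSeq start (GRCh38.p14) were held for 5 of the genes that passed the filter, *CTNNA1*, *JUP*, *AFDN*, *NECTIN2* and *VEZT*. They were searched for CANNTG, the E-box, and for CAGGTG or CACCTG, the form of it that the SNAI and ZEB repressors bind, each read on both strands. Of all 35116 windows, 61.8% hold CANNTG and 17.5% hold CAGGTG or CACCTG. *AFDN* and *VEZT* are printed as a gene with several matches and a gene with none. CANNTG matches are in capitals, on the plus strand, for *AFDN* at chr6:167827385-167827634 and for *VEZT* at chr12:95217557-95217745, which ends where its annotated exons begin.
AFDN: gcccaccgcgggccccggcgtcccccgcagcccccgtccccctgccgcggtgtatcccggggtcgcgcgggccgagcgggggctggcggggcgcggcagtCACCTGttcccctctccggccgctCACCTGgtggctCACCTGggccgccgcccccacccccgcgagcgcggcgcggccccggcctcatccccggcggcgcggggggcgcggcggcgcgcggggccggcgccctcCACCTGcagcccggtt
VEZT: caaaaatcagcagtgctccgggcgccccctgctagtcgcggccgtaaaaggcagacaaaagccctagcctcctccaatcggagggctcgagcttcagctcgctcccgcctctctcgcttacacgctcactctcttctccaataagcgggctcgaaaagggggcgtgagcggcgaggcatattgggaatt

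The *AFDN* window holds 4 matches, all of the form CACCTG. Its start lies 1071 bases inside the outermost *AFDN* locus of the files, so it serves an inner start. The whole *VEZT* window holds 0. *JUP* has 3 CANNTG matches before its inner start, 2 of them CAGGTG or CACCTG, and 0 before its outer start. The outer windows of *CTNNA1* and the window of *NECTIN2* hold 0, and the inner windows of *CTNNA1* hold 1 and 2 CANNTG. These are matches of letters and say nothing of binding.

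Over all tested genes, limma called 7.1% lower and 13.5% higher in knockdown, the shares to set beside the counts of the gene lists. Among regulators of E-cadherin, the list of 18 repressors held 12 tested genes, and 1 of them was called in knockdown. It was *TCF3*, the gene of the E2A factors, at 57.1 FPKM in control (SD 0.951) and 52.8 in knockdown libraries (log2 fold change −0.11, limma adjusted p = 0.0145). *ZEB1* was at 5.66 and 5.28 FPKM (limma adjusted p = 0.21), *SNAI1* at 3.65 and 4.11 (0.398), *SNAI3* at 1.16 and 1.13 (0.776) and *TWIST2* at 18.0 and 17.1 (0.593).

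*SNAI2*, the gene of Slug, was at 0.959 FPKM in control, 1.44 with shRNA1 and 0.904 with shRNA2, and was called higher with shRNA1 (log2 fold change 0.32, limma adjusted p = 0.00392), with a difference between the hairpins of −0.36 (limma adjusted p = 0.00237). *EZH2*, a histone methyltransferase, was also called higher with shRNA1 (0.16, limma adjusted p = 0.0192). The corepressors *CTBP1*, *CTBP2*, *HDAC1* and *HDAC2* were not called in knockdown. With shRNA2 alone, 3 repressors were called lower and 0 higher, against 11.4% and 15.3% of all tested genes. The 3 were *TCF3* (−0.13, limma adjusted p = 0.0109), *CTBP2* (−0.09, limma adjusted p = 0.0242) and *TWIST2* (−0.21, limma adjusted p = 0.0499). *ZEB2* stayed under 0.1 FPKM on average, and *TWIST1* was listed at 0 in every library.

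Of 16 activators of E-cadherin or of the epithelial state, 8 were tested. In knockdown limma called 3 of them lower and 0 higher, against 7.1% and 13.5% of all tested genes. *ELF3*, an epithelial ETS factor, was at 20.6 FPKM in control (SD 0.276) and 17.2 in knockdown libraries (log2 fold change −0.25, limma adjusted p = 0.0148). *FOXA1*, a pioneer factor of prostate epithelium, was at 29.8 and 26.2 FPKM (−0.18, limma adjusted p = 0.0348), and was not called with shRNA1 alone (limma adjusted p = 0.0771). *KLF5* was at 12.6 and 11.5 FPKM (−0.12, limma adjusted p = 0.0145). *TFAP2A*, *TFAP2C*, *KLF4*, *ESRP2* and *GRHL1* were not called in knockdown. With shRNA1 alone *TFAP2A* was called lower (−0.27, limma adjusted p = 0.0232) and *KLF4* higher (0.17, limma adjusted p = 0.0410). *GRHL2*, which drives *CDH1* in many epithelia, reached a mean of 0.000882 FPKM in knockdown libraries and was listed at 0 in the controls. The repressors had a median of −0.03 and the activators of −0.08.

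The wider cadherin superfamily was mostly silent. Of 19 other classical cadherins, 1 was tested, *CDH24*, at 11.8 FPKM in control libraries (log2 fold change −0.08, limma adjusted p = 0.155). Of 28 protocadherins and large cadherins, 5 were tested. Of these, 4 were called lower and 0 higher (median −0.18), against 7.1% and 13.5% of all tested genes. *CELSR1* and *CELSR2*, flamingo cadherins of planar cell polarity, went from 5.75 to 3.68 FPKM (−0.54, limma adjusted p = 0.00935) and from 3.55 to 2.34 (−0.45, limma adjusted p = 0.00049). The calsyntenin genes *CLSTN3* (−0.18) and *CLSTN1* (−0.165, at 62.6 FPKM in control libraries) also fell. The median transcript length of the 5 tested genes was 10534 bases, and of genes over 8000 bases 31.1% were called lower. With the length trend removed 2 of the 5 were called.

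Of 8 other catenins, 5 were tested and 1 was called in knockdown. It was *CTNNAL1*, the gene of α-catulin, a relative of α-catenin, which rose from 122 to 142 FPKM (log2 fold change 0.21, limma adjusted p = 0.00805). *CTNNB1* differed between the hairpins by −0.12, lower with shRNA2 (limma adjusted p = 0.0409). Of 7 other nectins and nectin-like molecules, 4 were tested and 0 called by limma, with medians near 0 (−0.01). The highest was *PVR*, at 37.3 FPKM in control and 39.1 in knockdown libraries (limma adjusted p = 0.19).

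Of 30 listed genes that link adherens junctions to actin, 26 were tested. There limma called 7 lower and 0 higher (median −0.11), against 7.1% and 13.5% of all tested genes. The motors *MYH9* and *MYH10*, heavy chains of nonmuscle myosin II, fell from 202 to 147 FPKM (log2 fold change −0.46, limma adjusted p = 0.000789) and from 32.5 to 25.2 (−0.36, limma adjusted p = 0.00777). *ARHGAP21*, a GTPase-activating protein gene (−0.21), the myosin VI gene *MYO6* (−0.18) and *ACTN4*, an actinin (−0.14, at 275 FPKM in control libraries), fell as well. However, *MYO6* was called with neither hairpin alone (limma adjusted p = 0.112 with shRNA1 and 0.0611 with shRNA2). Its knockdown and control libraries overlapped. The median transcript length of the 26 was 5035.5 bases, and of genes from 5000 to 6000 bases 16.8% were called lower. With the length trend removed, 2 of the 26 were called lower.

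The desmosome, the other junction that plakoglobin serves, had 6 of 12 listed genes tested, of which 2 were called lower and 0 higher (median −0.11). *DSP*, the gene of desmoplakin, which ties plakoglobin to keratin, fell from 8.65 to 6.32 FPKM (log2 fold change −0.40, limma adjusted p = 0.00302). The desmosomal cadherin gene *DSC2* fell from 4.42 to 3.83 (−0.17, limma adjusted p = 0.0278), and was not called with shRNA2 alone (limma adjusted p = 0.0643). *DSG2*, the most abundant, was at 59.8 and 59.9 FPKM (limma adjusted p = 0.992). The median transcript length of the 6 was 6385 bases. Among genes of 6000 to 8000 bases 20.8% were called lower, and over all tested genes 7.1%. With the length trend removed 1 of the 6 was called.

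Of 29 genes that cut, sort or phosphorylate cadherins, 27 were tested. There limma called 4 lower and 0 higher (median −0.07), against 7.1% and 13.5% of all tested genes. The 4 were the phosphatase genes *PTPN1* (log2 fold change −0.23), *PTPRJ* (−0.21) and *PTPRF* (−0.13) and the lipid kinase gene *PIP5K1C* (−0.17). Of these, *PTPRF* was not called with shRNA1 alone (limma adjusted p = 0.0832). The median transcript length of the 27 was 4432 bases, and of genes from 4000 to 5000 bases 11.6% were called lower. With the length trend removed, 3 were called lower and 2 higher (median −0.03), and *PTPRF* was no longer called. The protease gene *ADAM15*, the most abundant, was at 86.1 and 83.4 FPKM (limma adjusted p = 0.474).

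**Figure D5:**
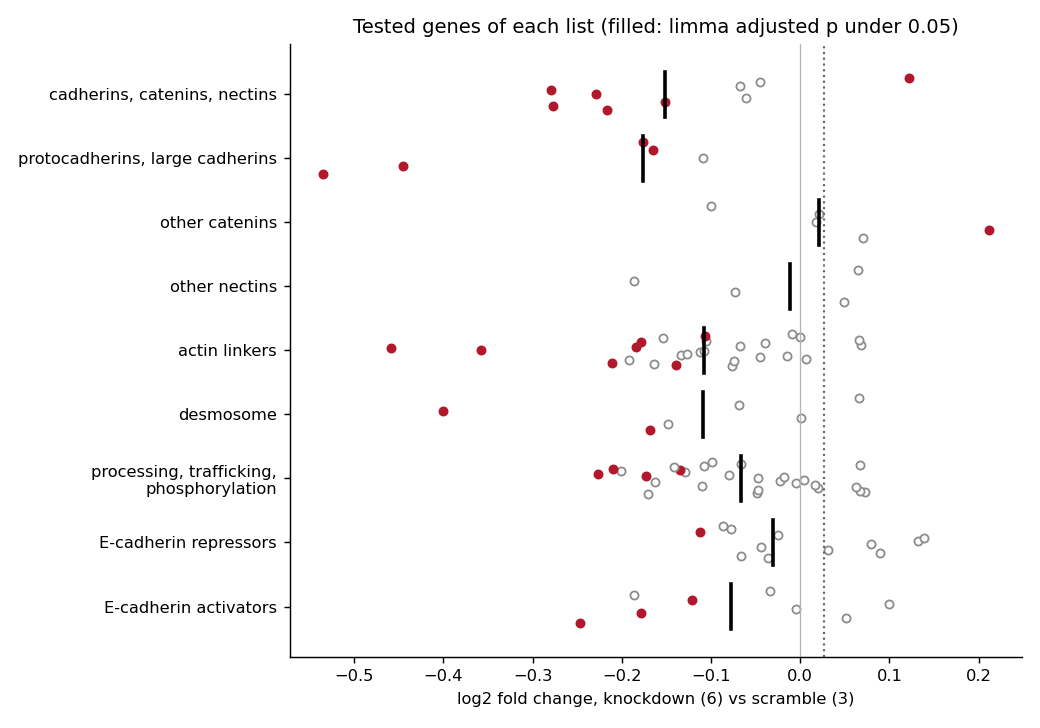
Log2 fold change in knockdown against scramble (x axis) of each tested gene of 9 lists (rows), filled where limma called it, with the list median as a bar and the median of all tested genes as a dotted line. The list medians lie between −0.18 and 0.02, and most called genes lie left of 0.

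Of 7 epithelial markers, 6 were tested, and limma called 1 lower, *CDH1* itself, and 2 higher in knockdown, *EPCAM* from 17.6 to 21.4 FPKM (log2 fold change 0.26, limma adjusted p = 0.0173) and *KRT19* from 153 to 170 (0.15, limma adjusted p = 0.00793). With the length trend removed neither *EPCAM* (0.19, limma adjusted p = 0.0886) nor *KRT19* (0.06, limma adjusted p = 0.208) was called, and *CDH1* still was. *KRT7* had the highest level, at 1022 and 1037 FPKM. Of 6 mesenchymal markers, 3 were tested and 1 called, *FN1*, the gene of fibronectin, which fell from 1.62 to 1.17 FPKM (−0.27, limma adjusted p = 0.0318), while *VIM* was at 1086 and 1074 FPKM (limma adjusted p = 0.734). *FN1* was not called with the length trend removed (−0.17, limma adjusted p = 0.218).

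Of the other marker lists, 1 gene each was tested among the neuroendocrine and leukocyte markers and 0 among the fibroblast and endothelial ones. *CD68*, a lysosomal protein gene listed for leukocytes, was called higher (0.42, limma adjusted p = 0.00503) and carried most of a summed leukocyte level of 16.9 to 18.1 FPKM in control and 21.3 to 25.7 in knockdown libraries. The neuroendocrine gene *ENO2* was at 16.7 and 16.3 FPKM. The highest fibroblast gene was *ACTA2* at 0.517 and 0.632 FPKM, and the highest endothelial gene was *CDH5* at 0.0430 and 0.0347. The part of these in the changes of the junction genes was not tested.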

How the data were processed

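RNA was measured in 9 DU145 libraries (scramble, shRNA1 and shRNA2, 3 each), grouped by their titles. Per the labels and methods, the authors made stranded mRNA libraries, mapped them with STAR and computed the deposited FPKM with Cufflinks (versions are not given in the sources used here). The methods name mm10, whereas the loci and labels are those of human hg38. The FPKM are scaled for depth and transcript length and hold no counts, so the number of libraries limits precision. Depth was estimated from the confidence bounds.

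Entries were joined by accession and locus, 72645 of 73240 accessions were paired with genes (RefSeq, GRCh38.p14), and 42 genes with unusable entries were left out. Genes averaging 1 FPKM or more over the libraries were tested on log2(FPKM + 1) by limma 3.58.1 (R 4.3.3), with Benjamini-Hochberg adjustment over all 12509 genes and a threshold of 0.05. Knockdown against control was a 2-group fit, and the hairpin contrasts came from a 3-group fit. Single genes were also compared by exact permutation of libraries. The tests were checked on simulated data, where shRNA1 against control recovered slightly fewer changed genes than first required, and the limit was lowered after this was seen. Length trends were removed by lowess (span 0.3, GENCODE v29 lengths). Alternatives are given in the closing section.

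The genes and the lists were chosen with earlier results of these data known. Named genes are all 10 genes, *FZD6*, *CTNNB1* and, from each list, up to 4 called genes per direction by size and the most abundant gene. Regulators of E-cadherin of at least 1 FPKM and transcripts with at least 10% of a gene are also named. *CD3E*, *PTPRC*, *KRT8*, *KRT18*, *SNAI2*, *ZEB2*, *TWIST1*, *GRHL2* and the transcripts NM_001085462 and NM_001206889 were named after their values were seen. Some listed genes are not reported here. Sequences come from GENCODE v29 and RefSeq.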

Additional observations from a re-analysis of the deposited data

Results flagged for a closer look

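*NECTIN1* differed between the hairpins. The log2 difference, shRNA2 minus shRNA1, was 0.16 (SE 0.036, limma adjusted p = 0.0414), with means of 24.3 FPKM (SD 0.505, n = 3) with shRNA1 and 27.3 (SD 0.311, n = 3) with shRNA2. All 3 shRNA2 libraries were above all 3 shRNA1 libraries. Over the alternatives the adjusted p of this difference ran from 0.0291 to 0.133.

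Among 18 measures (the 9 tested genes and 9 ratios and sums), 0 had a knockdown library that stood apart from the other 5 by Dixon's test, where chance flags about 1 in 20.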

How the results depend on the processing

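Apart from genes lower in knockdown by the study's criteria, shares of all tested genes called under the alternatives are not reported here. The counts below therefore stand without them. Over the alternatives run, *CDH1* and *JUP* stayed lower in knockdown with adjusted p under 0.05 in every limma fit that tested them. Their log2 fold changes ran from −0.34 to −0.23 and from −0.33 to −0.24, and *FZD6* from −1.20 to −1.02. A filter of 5 FPKM dropped *CDH1*. In knockdown the genes called lower were 3 with the replicate block and length trend removal together (without *CDH3*, adjusted p = 0.0567, and *AFDN*, 0.0529) and 2 by the study's criteria, and 2 to 5 when a library was left out. Those called higher were 0 with protein-coding accessions only and by the study's criteria, and 0 to 1 when a library was left out. Leaving out control replicate 1 or 2 gave 2 lower, and the cause was not tested.

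With shRNA1, 7 were called lower by quantile normalization, 2 with the length trend removed, with or without the block, 0 by the study's criteria, and 1 to 5 with a library left out. Then 1 was called higher with a filter of 5 FPKM, median centring, length trend removal (with or without the block), a mean trend in the prior, and only the groups compared, and 0 to 1 with a library left out. With shRNA2, 3 were called lower without a filter and with only the groups compared, 2 by the study's criteria and 3 to 5 with a library left out. Those called higher were 0 with protein-coding accessions only, only the groups compared and the study's criteria, and 0 to 1 with a library left out. Between the hairpins 0 were called with the length trend removed, only the groups compared and the study's criteria, and 0 to 2 with a library left out.

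Of 824 values of single genes, 10 changed sign, of which only *VEZT* with shRNA2 had been called. With shRNA2 against control, *NECTIN1* was −0.0043 after quantile normalization and −0.022 to 0.043 with a library left out, *NECTIN2* −0.056 to 0.017 with a library left out, and *VEZT* −0.015 with protein-coding accessions only. Between the hairpins, a library left out gave −0.0014 to 0.037 for *CTNNA1*, −0.10 to 0.043 for *CTNND1*, −0.017 to 0.095 for *AFDN* and −0.033 to 0.021 for *VEZT* (−0.019 without shRNA1 replicate 1), and *VEZT* was −0.12 with protein-coding accessions only. A further 79 lost and 19 gained a call.

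Libraries share a replicate number across groups in their titles. Deviations of same-numbered libraries correlated at −0.07 to 0.11, and 1 of 9 pairs exceeded 0.1. Pairs of different number ran from −0.12 to 0.18, and 1 of 18 exceeded 0.1. No strong effect shared by number was seen, which cannot show whether same-numbered libraries were made together. With the replicate block, 5 genes were called lower and 1 higher in knockdown, 5 and 0 with shRNA1, 5 and 1 with shRNA2, and 1 between the hairpins. Depth and the 3 libraries per group limit the smallest changes that pass.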
